A study of Mus musculus with 4 samples.

Results

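Mitochondrial ribosomal protein genes were taken as every gene of the table whose symbol is Mrpl or Mrps followed by a number and, in some cases, 1 letter. This gave 75 of 18364 genes, of which 47 carried an Mrpl and 28 an Mrps symbol. No measured value entered the choice, and all 75 members passed the filter on low values, which removed no gene. *Mrpl53*, *Mrpl58* and *Mrps18a*, which the rule would take by name, were not analysed here under those symbols. RNA was sequenced in bulk from large peritoneal macrophages (LPMs), which reside in the peritoneal cavity, double-sorted from 8-week-old C57BL/6 mice. The 2 WT libraries came from *Rxra* fl/fl mice, and the 2 libraries labelled Rxra-KO came from *Rxra* fl/fl mice that also carried Cre at the LysM (*Lyz2*) locus, which is active in myeloid cells. The labels write these genotypes as wild type and *Rxra*-/-. Both groups thus shared the floxed *Rxra* alleles, and the Cre insertion was present in the Rxra-KO group alone. Nothing states that the libraries of a group came from separate mice, so the spread between libraries behind the p-values may be technical. In limma that spread was mostly taken from other genes of similar level.

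Mitochondria keep their own ribosome, which translates the few membrane proteins of the respiratory chain that mitochondrial DNA encodes. The ribosomal RNA of this mitoribosome is made inside the organelle, whereas all of its proteins are encoded in the nucleus, made in the cytosol and imported. The proteins fall into a large subunit, which forms peptide bonds, and a small subunit, which binds the messenger RNA and reads its codons. Part of them have bacterial counterparts, and the rest are specific to mitochondria. Symbol and place differ for a few genes. The proteins of *Mrps30* and *Mrps18a* sit in the large subunit, and the product of *Mrps36* belongs to the 2-oxoglutarate dehydrogenase complex. RXRα is a nuclear receptor that binds DNA together with partner receptors, and the comparison asks how the transcripts of LPMs differ when its gene is deleted in myeloid cells.

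Recovered depth was 652542 and 947372 reads in WT and 629030 and 1047021 in the libraries labelled Rxra-KO, replicate 1 first, so each group had a shallower and a deeper library. *Rxra* itself had 20 and 28 WT reads against 33 and 77 in the libraries labelled Rxra-KO, so it was not lower as their label would have it. Its difference of 0.99 in log2 units (standard error 0.36) did not pass the test, at an adjusted p of 0.183 in limma, and reads over the whole gene do not single out the floxed exons. Every direction below is between libraries as their labels name them. LPM identity was visible in all libraries, with 17 of 18 markers in the table and none at 0, and *Adgre1*, which encodes F4/80, was not analysed here. Summed normalised read counts of this list were 55270 to 55291 in WT and 27423 to 29860 in the libraries labelled Rxra-KO, and 12 of the 17 genes were called lower, beside 0.969% of all genes. *Lyz2*, whose locus carries the Cre insertion in the Rxra-KO group alone, is 1 of these 12, and its part in the sums was not separated. The list of dendritic cell and small peritoneal macrophage markers had 5 of 12 genes called higher, beside 1.32% of all genes, with sums of 178 to 395 in WT and 3147 to 4599 in the libraries labelled Rxra-KO, and none at 0. The 5 were *Ccr2*, *Cd209a*, *Irf4*, *Mrc1* and *Retnla*. *Retnla* alone had a mean of 89.1 in WT and 2301 in the libraries labelled Rxra-KO, so the sums do not describe the list as a whole. Proliferation genes had 8 of 30 called lower, with sums of 1517 and 3032 in WT and 1054 and 936 in the libraries labelled Rxra-KO. Limma called 0 of 8 B cell, 5 neutrophil, 7 mast cell and 8 mesothelial genes, beside 2.29% of all genes. Voom, edgeR and DESeq2 also called 0, and DESeq2 gave an adjusted p for 5547 of the 18364 genes. Median depth was 4.12, 3.75, 3.5 and 3.25 reads in these lists, in that order, so changes could go uncalled. Of 10 neutrophil markers listed, 5 were analysed. An unadjusted p under 0.05 in limma was found for 2 B cell genes and 1 mesothelial gene, beside 10.1% of all genes. Both B cell genes had log2 fold changes above 0, and the mesothelial gene had one below 0. T cell markers had 1 of 8 called, *Cd2*, at 0 in both WT libraries, beside 1.32% of all genes called higher. At an unadjusted p under 0.05 in limma, 1 T cell gene, *Cd2*, had a log2 fold change above 0 and 1 below 0.

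Reference promoters are shown for 4 members: *Mrps30*, the member called; *Mrps7*, which had the highest fold change; *Mrpl57*, whose window held 3 of the motifs searched; and *Mrpl9*, the member with the highest value. Nuclear genes for mitochondrial proteins are known to be controlled by NRF1, by the ETS factor GABP and by YY1, and RXR heterodimers and homodimers bind half-sites of the letters AGGTCA. Each window runs from 250 bases before to 50 bases after the start site in RefSeq on GRCm38.p6. Capitals mark letters that match a motif, on either strand. The windows are chr13:118387203-118387502 (minus strand), chr11:115603890-115604189 (plus strand), chr14:57825989-57826288 (plus strand) and chr3:94443086-94443385 (plus strand).
Mrps30: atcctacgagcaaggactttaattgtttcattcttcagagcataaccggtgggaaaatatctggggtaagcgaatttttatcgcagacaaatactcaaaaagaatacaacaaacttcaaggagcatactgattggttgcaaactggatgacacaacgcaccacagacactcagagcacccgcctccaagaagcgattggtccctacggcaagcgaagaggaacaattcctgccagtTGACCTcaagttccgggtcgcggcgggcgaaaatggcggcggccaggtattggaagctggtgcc
Mrps7: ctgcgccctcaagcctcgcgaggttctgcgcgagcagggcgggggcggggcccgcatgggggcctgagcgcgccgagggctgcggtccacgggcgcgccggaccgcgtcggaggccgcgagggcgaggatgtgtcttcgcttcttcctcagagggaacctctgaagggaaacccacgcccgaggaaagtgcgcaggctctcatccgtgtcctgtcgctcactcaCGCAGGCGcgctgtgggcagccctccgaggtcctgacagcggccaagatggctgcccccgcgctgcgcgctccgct
Mrpl57: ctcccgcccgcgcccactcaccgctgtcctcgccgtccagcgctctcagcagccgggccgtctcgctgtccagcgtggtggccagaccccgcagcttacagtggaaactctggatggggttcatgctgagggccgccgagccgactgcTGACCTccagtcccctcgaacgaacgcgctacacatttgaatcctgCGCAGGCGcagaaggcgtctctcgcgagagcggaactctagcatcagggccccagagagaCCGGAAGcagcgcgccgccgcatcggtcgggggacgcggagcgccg
Mrpl9: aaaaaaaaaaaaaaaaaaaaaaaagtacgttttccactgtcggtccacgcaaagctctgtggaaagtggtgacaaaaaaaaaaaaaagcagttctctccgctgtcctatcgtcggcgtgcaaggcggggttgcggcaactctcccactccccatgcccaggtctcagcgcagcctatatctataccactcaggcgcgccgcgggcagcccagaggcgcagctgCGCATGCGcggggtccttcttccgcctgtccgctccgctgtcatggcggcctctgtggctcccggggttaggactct
The window of *Mrps30* held a single half-site, which reads TGACCT as printed and AGGTCA on the complementary strand, at position -14 from the start site. The window of *Mrps7* held the NRF1 core CGCAGGCG at -26, and that of *Mrpl9* held CGCATGCG at -27, which reads the same on both strands. The window of *Mrpl57* held a half-site at -102, the NRF1 core at -56 and the ETS core CCGGAAG at 4.

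Windows were found for 66 of the 75 members. The NRF1 core, CGCANGCG with N for any base, stood in 20 of them (30.3%), against 9.22% of the windows of 27025 genes. The ETS core CCGGAAG was in 23 (34.8%, against 9.93%) and the YY1 letters AAGATGGCG in 7 (10.6%, against 1.64%). At least 1 of these 3 motifs was present in 41 windows (62.1%, against 18.3% of all genes). The single half-site AGGTCA was in 10 windows (15.2%), below the 18.1% of all genes, and a tandem pair of half-sites with 1 base between them, the DR1 element of RXR dimers, was in none, against 0.0481% of all genes. The 3 motifs do not contain each other's letters, and the tandem pair contains the single half-site. Median GC content was 57.9% in the members' windows and 52.8% in all windows. These matches are letters in reference sequence and no binding was measured.

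Mitoribosomal genes as a set were about as abundant in both groups. They took 0.236% of the reads in WT replicate 1 (Wilson 95% interval 0.225 to 0.248) and 0.258% in WT replicate 2 (0.248 to 0.268). In the libraries labelled Rxra-KO they took 0.228% (0.217 to 0.240) and 0.261% (0.252 to 0.271). The group means were 0.247% ± 0.0156 in WT and 0.244% ± 0.0233 in the libraries labelled Rxra-KO (SD, n = 2), and the groups overlapped. In both groups the deeper library had the higher share, and depth was not tested as a source of it. In bulk RNA, fewer expressing cells and less RNA per cell cannot be told apart. Because the reads carry no molecular identifiers and are not independent molecules, the intervals cover counting error only.

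Of the 75 members, 1 was called, which is 1.33% of them, beside 2.29% of all genes. A gene was called when its adjusted p was under 0.05 and its log2 fold change was 0.6 or more in either direction. The called member, *Mrps30*, was lower in the libraries labelled Rxra-KO, a direction in which 0.969% of all genes were called. Limma called 0 members higher, as did voom and edgeR, where limma's background was 1.32%. DESeq2 also called 0 higher, but it gave an adjusted p for 31 members only, and *Mrps7* was not among them. At an unadjusted p under 0.05, limma had 5 members (6.67%), against 10.1% of all genes. These were *Mrps30*, *Mrps35*, *Mrpl57* and *Mrps24*, with lower values in the libraries labelled Rxra-KO, and *Mrps7*, with higher values. Both Rxra-KO libraries lay above both WT libraries for 13 members (17.3%, beside 18.8% of all genes) and below them for 13 (17.3%, beside 19.3%), while the groups of the other 49 overlapped. Each of these shares of the members was near the background or under it.

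Fold changes of the members centred near 0 on the log2(value + 1) scale, on which a pseudocount of 1 was added to the normalised read count. Their median was -0.02, with quartiles of -0.38 and 0.32, while the median over all genes was 0.02, with quartiles of -0.39 and 0.41. A value above 0 was found for 37 members and below 0 for 38. The plot of fold changes with their intervals shows the whole set in order.

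**Figure D1:**
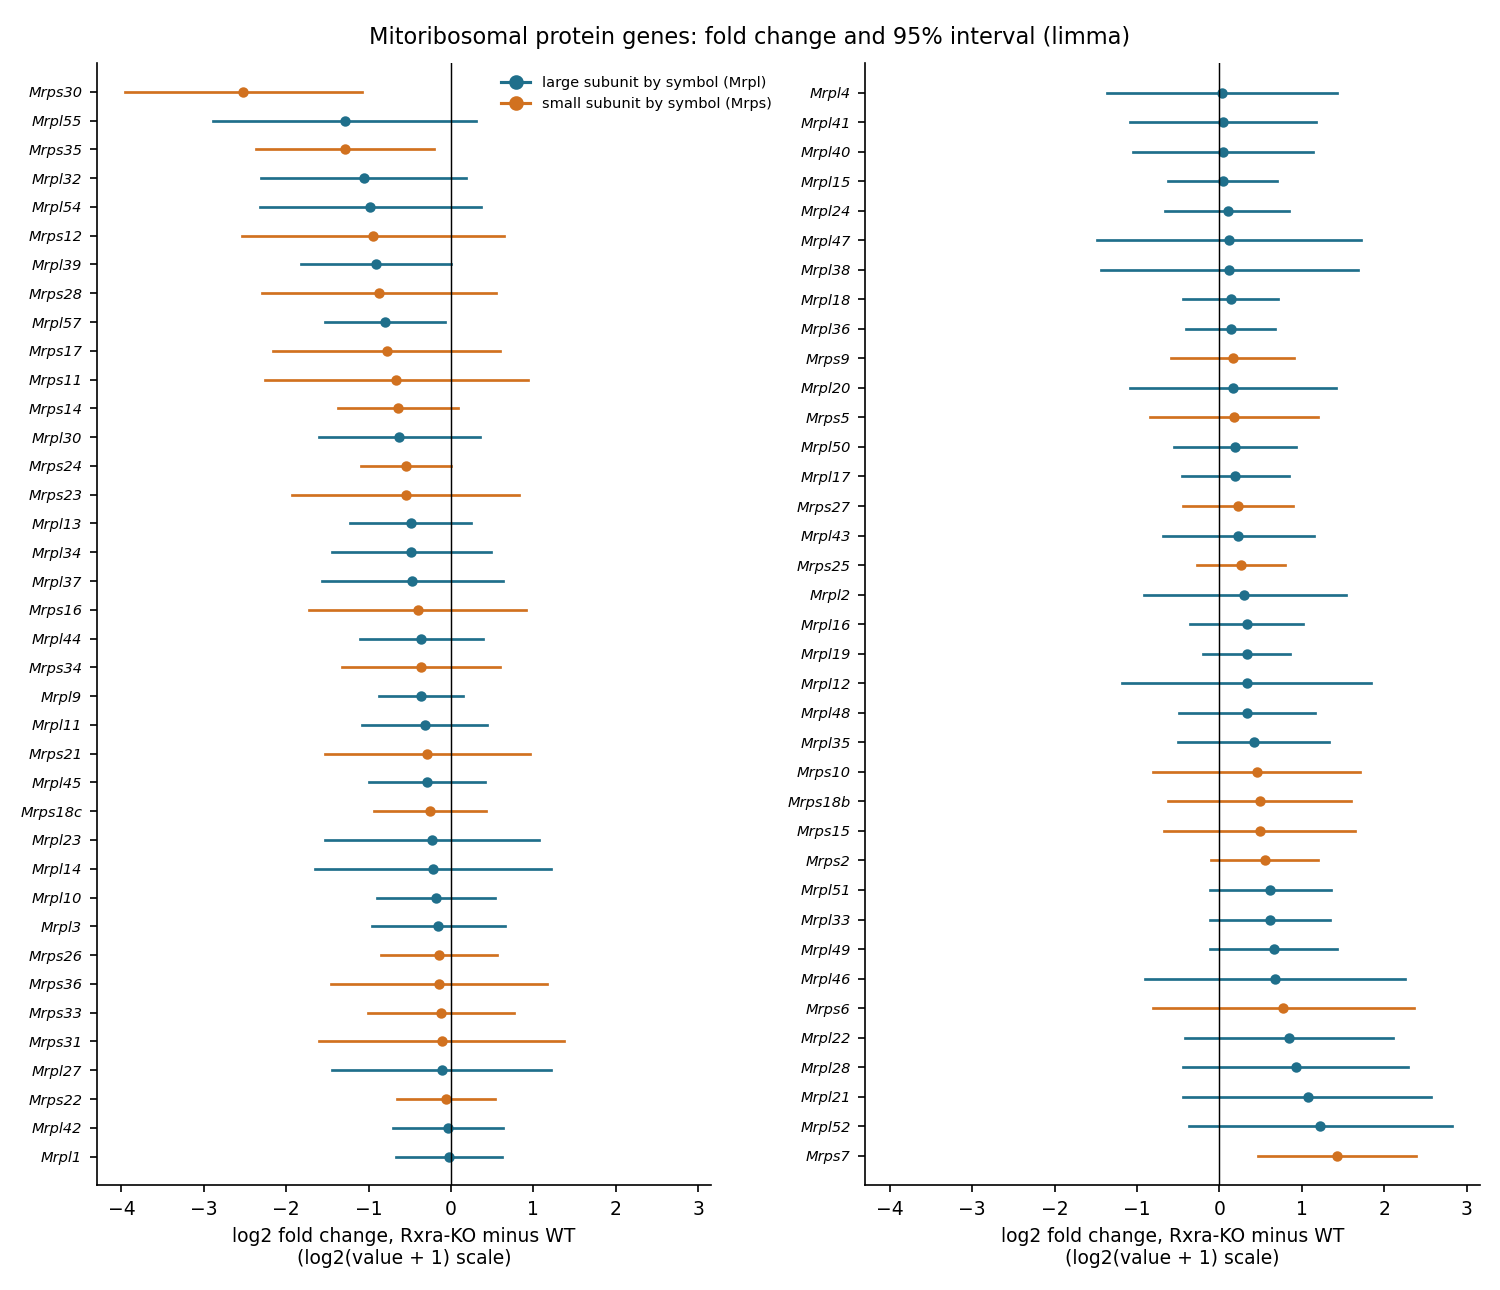
Log2 fold change of each of the 75 mitoribosomal genes, libraries labelled Rxra-KO minus WT, on the x axis, with limma's 95% interval as a line and colour for the subunit given by the symbol. Intervals of *Mrps30*, *Mrps35*, *Mrpl57* and *Mrps24* end below 0 and that of *Mrps7* starts above it, while the other 70 include 0.

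*Mrps30* encodes a mitochondria-specific protein that, despite its symbol, belongs to the large subunit. It had 18 and 11 WT reads against 2 and 1 in the libraries labelled Rxra-KO. After scaling, these were read counts of 28.0 and 12.5 against 3.76 and 1.49, so the groups did not overlap, and both Rxra-KO libraries were at or under 3 reads. It fell by 2.52 in log2 units, at a standard error of 0.73 and an adjusted p of 0.0323 in limma. With depth taken into account, the ratio of WT to Rxra-KO reads was 10.2, with an exact 95% counting interval from 3.16 to 52.4. With 1 library left out, the log2 fold change stayed between -3.07 and -1.97. The call was lost without WT replicate 1 (-1.97) and without Rxra-KO replicate 2 (-2.05), in fits with 1 library in that group. It was also lost with voom (adjusted p = 0.0721), and DESeq2 gave this gene no adjusted p. *B430218F22Rik* on the opposite strand overlaps 9.3% of its exons, and the kit did not mark strand. The LPM identity, proliferation and small peritoneal macrophage lists moved between the same libraries, and their part in the lower *Mrps30* was not tested.

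*Mrps7* encodes a protein of the head of the small subunit with a bacterial counterpart. It had 8 and 10 WT reads against 18 and 42 in the libraries labelled Rxra-KO. After scaling, these were read counts of 12.9 and 11.4 against 27.9 and 42.2, without overlap. In log2 units the difference was 1.43 (standard error 0.49), and limma's adjusted p of 0.119 did not pass. It ranged from 1.14 without Rxra-KO replicate 2 to 1.72 without Rxra-KO replicate 1. *Gga3*, which starts 126 bases away in the opposite direction and overlaps *Mrps7*, had a log2 fold change of 0.33 (standard error 0.46). *Mif4gd*, the other overlapping gene, had 7 and 3 WT reads against 5 and 15 in the libraries labelled Rxra-KO.

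*Mrps35*, another protein of the small subunit head, had 15 and 24 WT reads against 6 and 9 in the libraries labelled Rxra-KO. Its normalised read counts were 23.5 and 26.6 against 9.79 and 9.44, a difference of -1.29 in log2 units (standard error 0.55) at an adjusted p of 0.316 in limma. The other 5 head proteins did not share 1 direction. *Mrps14* was at -0.64 and *Mrps33* at -0.12 with both Rxra-KO libraries below WT, whereas *Mrps31* at -0.11, *Mrps9* at 0.16 and *Mrps10* at 0.45 overlapped between groups. Over the 7 head genes the median log2 fold change was -0.11, and none was called.

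**Figure D2:**
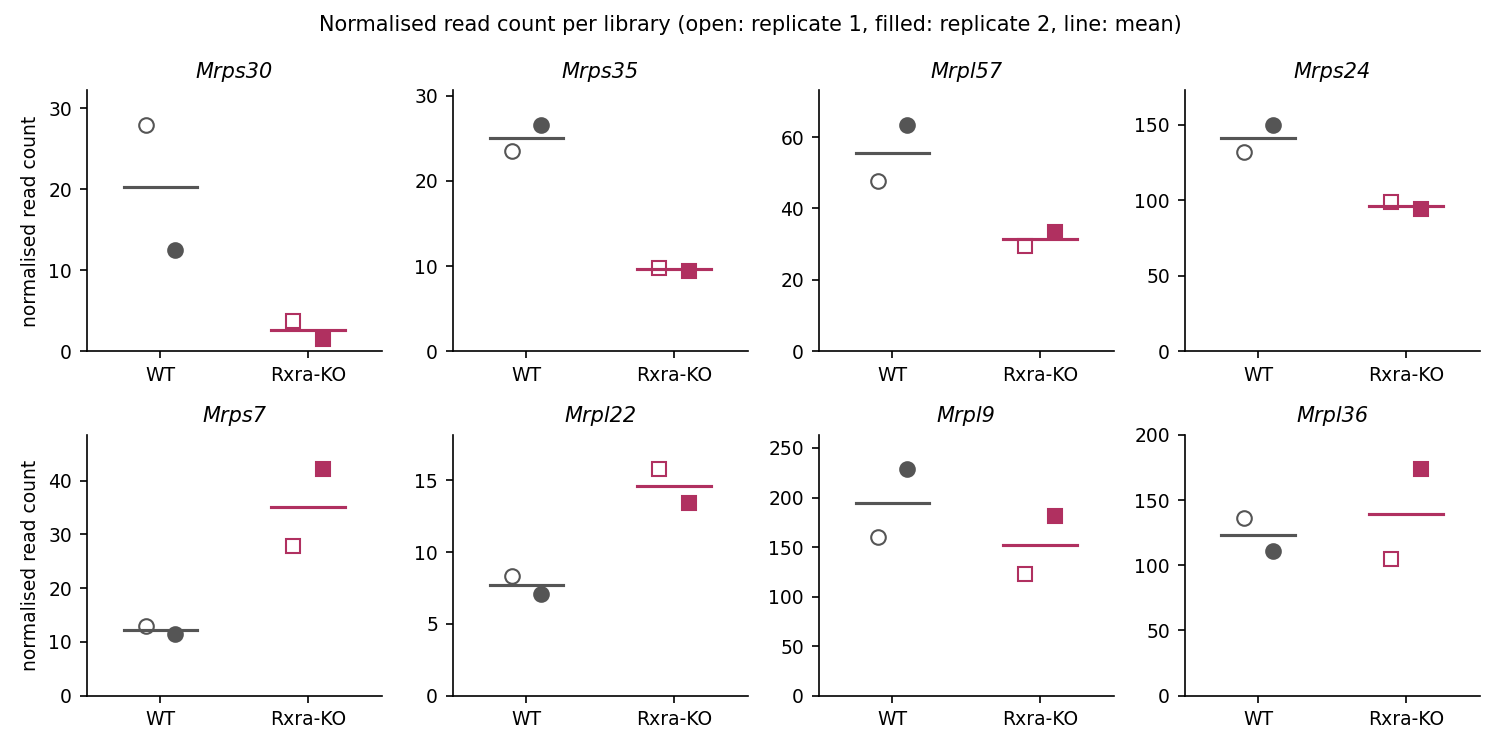
Normalised read count per library for 8 members on axes that start at 0, with WT as circles, libraries labelled Rxra-KO as squares, open symbols for replicate 1, filled symbols for replicate 2 and a line at the mean of 2 libraries. Groups are apart for *Mrps30*, *Mrps35*, *Mrpl57*, *Mrps24*, *Mrps7* and *Mrpl22*, of which limma called *Mrps30*, and overlap for *Mrpl9* and *Mrpl36*.

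*Mrpl57*, a mitochondria-specific protein of the large subunit, had 31 and 58 WT reads against 19 and 33 in the libraries labelled Rxra-KO. Scaled read counts of 47.7 and 63.5 against 29.4 and 33.3 differed by -0.80 in log2 units (standard error 0.37), at an adjusted p of 0.406 in limma. *Mrps24*, which lies where messenger RNA enters the small subunit, was better covered, with 87 and 138 WT reads against 65 and 94 in the libraries labelled Rxra-KO. It stood at -0.55 in log2 units (standard error 0.28), at an adjusted p of 0.487 in limma. *Mrps5*, the other protein of the entry site, was at 0.18. Both genes were thus apart between groups without passing the test over all genes.

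Among members with a mean value of at least 10, the next lowest fold changes were those of *Mrpl32*, *Mrpl54* and *Mrpl39*. *Mrpl32*, a large subunit protein matured by a mitochondrial protease, had 13 and 12 WT reads against 3 and 10 in the libraries labelled Rxra-KO, which is a log2 fold change of -1.06 (standard error 0.63). *Mrpl54*, specific to mitochondria, had 7 and 14 WT reads against 1 and 15 in the libraries labelled Rxra-KO. It was at -0.98 with all libraries and at 0.19 once Rxra-KO replicate 1 was left out, so the direction rested on that library. *Mrpl39* had 16 and 39 WT reads against 7 and 25 in the libraries labelled Rxra-KO, at -0.91 (standard error 0.46), and the groups overlapped. With 1 library left out, *Mrpl39* ranged from -1.46 without Rxra-KO replicate 2 to -0.36 without Rxra-KO replicate 1, and *Mrpl32* from -1.49 to -0.63. The adjusted p of limma was at least 0.496 for all 3.

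At the other end stood *Mrpl22*, *Mrpl49*, *Mrpl51* and *Mrpl33* after *Mrps7*. *Mrpl22*, which lines the exit tunnel of the nascent chain, had 5 and 6 WT reads against 10 and 13 in the libraries labelled Rxra-KO, which is a log2 fold change of 0.84 (standard error 0.64). *Mrpl33*, a small protein with a bacterial counterpart, had 26 and 25 WT reads against 39 and 44 in the libraries labelled Rxra-KO, at 0.61 (standard error 0.37). *Mrpl51*, specific to mitochondria, had 16 and 39 WT reads against 31 and 54 in the libraries labelled Rxra-KO, also at 0.61. With 1 library left out, *Mrpl51* ranged from 0.24 without WT replicate 1 to 0.99 without WT replicate 2, and *Mrpl33* from 0.35 without WT replicate 2 to 0.87 without WT replicate 1. These 3 did not overlap between groups and did not pass the test (limma adjusted p of 0.629 to 0.758). *Mrpl49* was carried by WT replicate 1, since its reads were 10 and 48 in WT against 26 and 54, and a fold change of 0.66 on the log2 scale turned to -0.18 once that library was left out.

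By region of the mitoribosome, no group of more than 1 gene stood wholly on 1 side of 0. The 4 genes near the peptidyl transferase centre (*Mrpl2*, *Mrpl3*, *Mrpl4* and *Mrpl16*) had log2 fold changes from -0.16 to 0.33, of which 3 were above 0. The 8 genes of the exit tunnel ran from -0.91 for *Mrpl39* to 0.84 for *Mrpl22*, with a median of -0.07. *Mrpl45* belongs to them and anchors the ribosome to the inner membrane, and it had 36 and 44 WT reads against 22 and 52 in the libraries labelled Rxra-KO, at -0.29. Of the 6 genes of the central protuberance, 5 were above 0, with a median of 0.13 and a range from -0.11 for *Mrpl27* to 0.67 for *Mrpl46*. *Mrpl46*, with at most 2 reads in any library, and *Mrpl38*, with at most 4, had too few reads to compare. *Mrpl48* was at 0.34.

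The stalk that recruits translation factors was measured through *Mrpl10*, *Mrpl11* and *Mrpl12*. *Mrpl10* had 24 and 53 WT reads against 23 and 47 in the libraries labelled Rxra-KO, which is a log2 fold change of -0.18. *Mrpl11* had 29 and 36 WT reads against 14 and 51 in the libraries labelled Rxra-KO, at -0.32. *Mrpl12*, which also binds the mitochondrial RNA polymerase, had 4 and 3 WT reads against 3 and 8 in the libraries labelled Rxra-KO, at 0.33 with a 95% interval from -1.18 to 1.84. All 3 overlapped between groups, and each of these signs turned when 1 library was left out.

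In the small subunit, *Mrps12* forms part of the decoding site, where codons are checked. It had 3 and 3 WT reads against 1 and 1 in the libraries labelled Rxra-KO, which is at the floor of 3 reads in every library, so no fold is given. The 6 genes of the platform, which hold *Mrps18b* and *Mrps18c*, ran from -0.67 for *Mrps11* to 0.77 for *Mrps6*, both of which had at most 7 reads in any library. These paralogues of the bacterial protein S18 share ancestry and take different places, *Mrps18c* the bacterial one. *Mrps18b* had 9 and 9 WT reads against 12 and 16 in the libraries labelled Rxra-KO, which is a log2 fold change of 0.49. *Mrps18c* had 29 and 65 WT reads against 25 and 58 in the libraries labelled Rxra-KO, at -0.25 with overlap. *Mrps36*, whose product is not part of the mitoribosome, had 9 and 6 WT reads against 6 and 8 in the libraries labelled Rxra-KO, at -0.14 (standard error 0.67).

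Large and small subunit genes were then set against each other. By symbol, the median log2 fold change of the 47 Mrpl genes was 0.04, with a range from -1.29 to 1.22, and 27 were above 0. The 28 Mrps genes had a median of -0.14 with a range from -2.52 to 1.43, and 10 were above 0. Over all genes, 9393 of 18364 were above 0. At an unadjusted p under 0.05 in limma there was 1 Mrpl gene (2.13%) and 4 Mrps genes (14.3%), beside 10.1% of all genes. Of these 4, *Mrps7* had higher values and the other 3 lower values in the libraries labelled Rxra-KO. With genes placed by structure, which moves *Mrps30* to the large subunit and leaves out *Mrps36*, the medians stayed at 0.04 over 48 genes and -0.14 over 26 genes. The difference of the medians, 0.19 by symbol and 0.18 by structure, was under the pooled SD of the library values, 0.201. Without Rxra-KO replicate 2 it was 0.01.

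Within each library the mean log2 level of Mrpl genes exceeded that of Mrps genes, by 0.05 and 0.16 in WT and by 0.25 and 0.40 in the libraries labelled Rxra-KO. The groups were apart by this measure, with neighbouring values of 0.16 and 0.25. With genes placed by structure the differences were 0.06 and 0.07 in WT and 0.12 and 0.17 in the libraries labelled Rxra-KO, still apart and on a smaller scale. *Mrps30* alone moves between subunits, and *Mrps36* drops out, from 1 assignment to the other. By reads, Mrpl genes held 64.0% and 65.6% of the members' reads in WT and 64.8% and 67.6% in the libraries labelled Rxra-KO, and these shares overlapped. With 2 libraries against 2, 0.333 is the smallest two-sided p that an exact permutation test allows, so no test of the subunit difference was made.

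**Figure D3:**
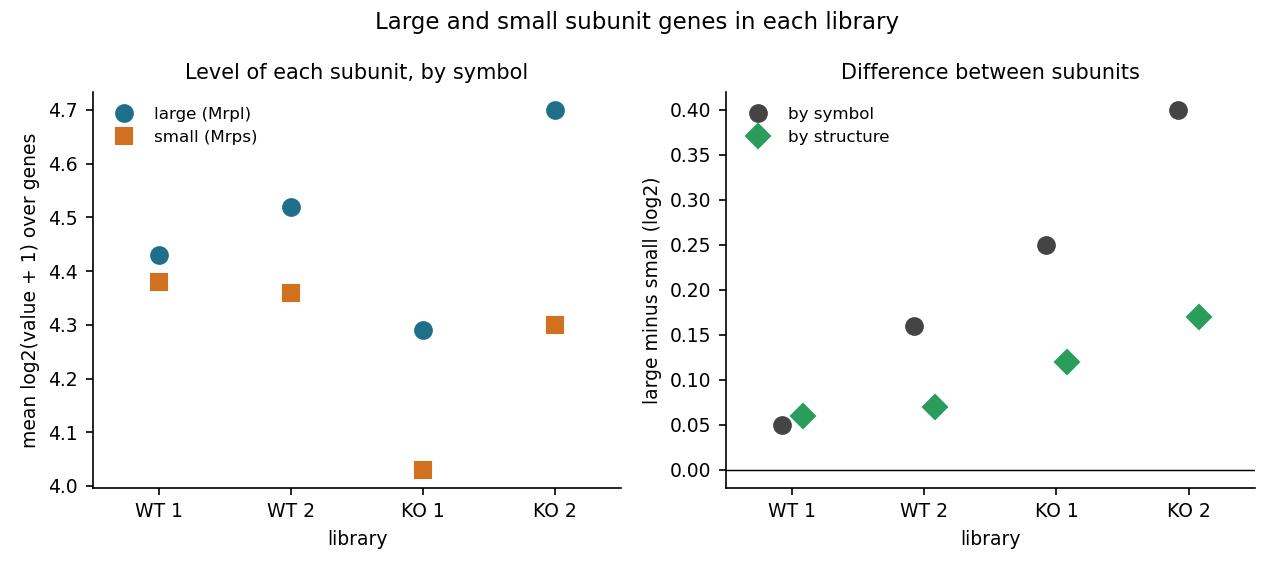
Left, mean log2(value + 1) of the 47 Mrpl and 28 Mrps genes in each of the 4 libraries, and right, the difference between large and small subunit with genes placed by symbol or by structure. The difference runs from 0.05 to 0.40 by symbol and from 0.06 to 0.17 by structure, with the libraries labelled Rxra-KO above WT in both.

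Origin separated the members no more than subunit did. The median log2 fold change was 0.03 for the 46 genes with a bacterial counterpart and -0.05 for the 28 genes specific to mitochondria. Mitochondria-specific genes of the small subunit, 10 in number, were at a median of -0.12, and small subunit genes with a bacterial counterpart, 16 in number, at -0.27. The corresponding medians for the large subunit were 0.04 over 18 genes and 0.07 over 30 genes. *Mrps30* was the called member of the mitochondria-specific genes.

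Promoter motifs were also set beside the fold changes. The 20 members whose window held the NRF1 core had a median log2 fold change of -0.16, and the 46 without it one of 0.04. The medians were -0.06 with and 0.04 without the ETS core, and -0.04 with and 0.04 without the YY1 letters. The 10 members with a half-site had a median of 0.13 and ran from -2.52 for *Mrps30* to 0.84 for *Mrpl22*, and the 56 without it had a median of -0.03. *Mrps30* and *Mrpl57* were the members with a half-site and an unadjusted p under 0.05, while *Mrps7* had the NRF1 core without a half-site. No test was made between these groups of genes.

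Levels differed widely between the members. The highest normalised read counts belonged to *Mrpl9*, *Mrpl19* and *Mrpl36*. *Mrpl9*, a large subunit protein with a bacterial counterpart, had 105 and 211 WT reads against 81 and 182 in the libraries labelled Rxra-KO. *Mrpl19* had 72 and 114 WT reads against 92 and 156 in the libraries labelled Rxra-KO, at 0.33 with the groups apart, and *Gcfc2* on the opposite strand overlaps 36.0% of its exons. *Mrpl36*, one of the smallest ribosomal proteins, had 89 and 102 WT reads against 69 and 175 in the libraries labelled Rxra-KO, at 0.14, which turned to -0.23 without Rxra-KO replicate 2. *Mrpl9* had the narrowest interval of the members, from -0.87 to 0.15 on the log2 scale. The lowest values were those of *Mrpl46* (0, 2, 2 and 2 reads, WT first), *Mrps12* and *Mrpl47* (2, 1, 0 and 7 reads), for which these depths allow no comparison.

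Per kilobase of coding transcript, *Mrpl36* led with a mean normalised read count of 183, ahead of *Mrps24* at 119 and *Mrpl9* at 106. *Mrpl42* followed at 89.8 and *Mrpl33* at 89.7, and this pair did not differ beyond the spread of its libraries. The lowest values per kilobase were 1.01 for *Mrpl47*, 2.14 for *Mrpl46* and 3.41 for *Mrpl38*. Lengths were medians over protein-coding transcripts of GENCODE M21. Across the 75 genes, log2 values of the WT pair of libraries had a Pearson's r of 0.851, those of the Rxra-KO pair one of 0.897, and pairs across the groups ran from 0.837 to 0.864. This is a description over genes of the same libraries, whose levels differ mainly from gene to gene.

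Depth set how closely the members could be measured. The median mean depth was 17.2 reads per member, against 9.25 reads per gene over the table. The 33 members with a mean of at least 20 reads had log2 fold changes from -0.91 to 0.66, a median standard error of 0.36 and 0 calls by any of these tools, with 2 at an unadjusted p under 0.05 in limma. The 28 members with a mean under 10 reads ran from -2.52 to 1.22 with a median standard error of 0.72. The 95% interval of the fold change lay within 2-fold in both directions for 19 members, all of them in the deeper set. For 12 members it reached beyond 2-fold in both directions, so a 2-fold change either way lay inside it. Changes of that size could go uncalled in other members too, as those of *Mrps7* at 1.43 and *Mrps35* at -1.29 did. *Mrpl55* and *Mrpl52* formed the ends of the Mrpl range at very low counts. *Mrpl55* had 8 and 1 WT reads against 0 and 2, a WT to Rxra-KO ratio of 4.75 with an exact 95% counting interval from 0.984 to 45.2. *Mrpl52* had 2 and 0 WT reads against 2 and 7, a ratio of 0.235 with an interval from 0.0247 to 1.13, so both intervals included equal counts. *Mrpl21* had 3 and 2 WT reads against 3 and 15 in the libraries labelled Rxra-KO, a ratio of 0.293. Its interval, from 0.0851 to 0.82, did not include equal counts, but covers counting error only. The higher sum of *Mrpl21* came from Rxra-KO replicate 2.

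**Figure D4:**
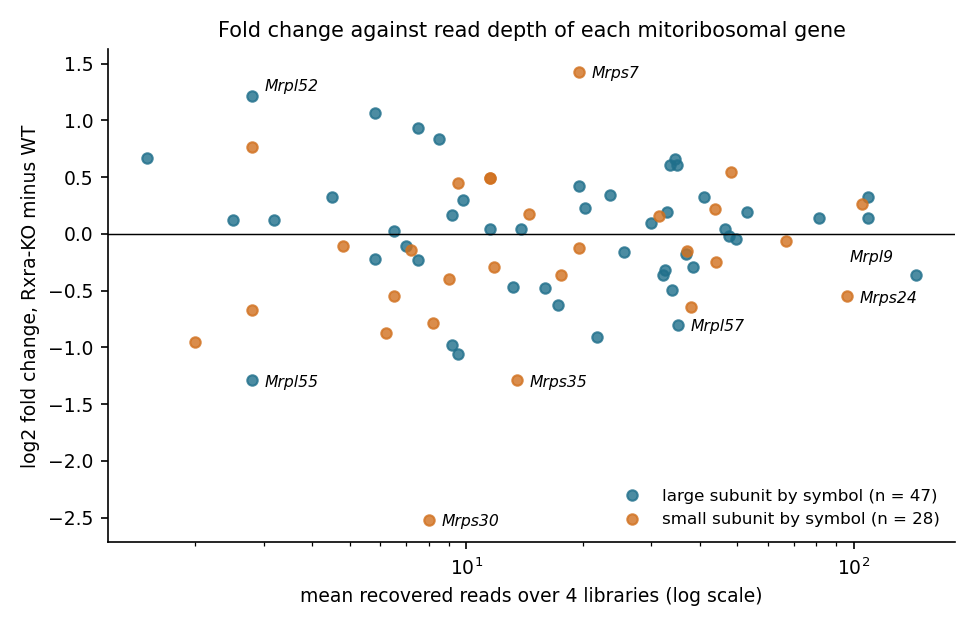
Log2 fold change of each member, libraries labelled Rxra-KO minus WT, against its mean recovered reads over 4 libraries on a log axis, with colour for the subunit by symbol. Fold changes run from -0.91 to 0.66 for the 33 members with at least 20 reads and from -2.52 to 1.22 for the 28 members under 10 reads.

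Many members lie close to other genes, which bears on which gene a read came from. Exons of 31 members overlap those of another gene in GENCODE M21, 26 of them on the opposite strand, and libraries from a kit that does not mark strand cannot tell these apart. The largest overlaps were 69.8% for *Mrps25*, by the nuclear receptor gene *Nr2c2*, and 63.4% for *Mrps34*. *Mrps25* had 81 and 103 WT reads against 93 and 142 in the libraries labelled Rxra-KO, at 0.26, and *Nr2c2* stood at 0.32. The 31 overlapping members had a median log2 fold change of 0.14. A protein-coding gene started within 1 kb in the opposite direction for 23 members, such as *Ndufs6* for *Mrpl36*, *Fau* for *Mrpl49* and *Sars2* for *Mrps12*, and 0 of these 23 neighbours was called.

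The machinery that works with the mitoribosome was examined through 7 lists, which held 107 genes in the table. Limma called 0 of them, beside 2.29% of all genes, and voom and edgeR also called 0. DESeq2 called 0 too, but left some of these genes without an adjusted p, such as *Fastkd2*, *Oxa1l*, *Ssbp1*, *Vdac1* and *Gabpb1*. An unadjusted p under 0.05 was found for 6 genes, which is 5.61% of the 107, beside 10.1% of all genes. Proteins of the mitoribosome under other symbols, 6 genes with *Dap3* and *Ptcd3* among them, centred on a median of -0.04 in log2 units. This list also holds *Ict1*, the older symbol of *Mrpl58*. The medians were -0.09 for 26 assembly and rRNA modification genes, -0.12 for 15 translation factors, -0.09 for 19 mitochondrial aminoacyl-tRNA synthetases and 0.21 for 9 genes of mitochondrial DNA maintenance and transcription. Of general mitochondrial proteins, 20 genes had a median of -0.01, and of nuclear regulators, 12 genes including *Nrf1*, *Gabpa* and *Yy1* had a median of 0.01.

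Among genes with a mean value of at least 10, the one with the largest fold change in each of these lists did not pass the test. *Fastkd2*, which binds mitochondrial ribosomal RNA in assembly, had 6 and 2 WT reads against 12 and 11 in the libraries labelled Rxra-KO, at 1.31. *Hars2*, the mitochondrial histidyl-tRNA synthetase, had 10 and 24 WT reads against 29 and 34 in the libraries labelled Rxra-KO, at 0.89. *Ssbp1*, which coats single-stranded mitochondrial DNA, had 21 and 32 WT reads against 7 and 27 in the libraries labelled Rxra-KO, at -0.90. The others were *Oxa1l*, the insertase of the inner membrane, at -0.69, the regulator *Gabpb1* at -0.81, the outer membrane channel *Vdac1* at -0.93 and *Gadd45gip1*, a mitoribosomal protein, at -0.28. Single libraries moved most of these values. Without Rxra-KO replicate 1, *Ssbp1* was at -0.30, *Gabpb1* at -0.17 and *Vdac1* at 0.36, and without Rxra-KO replicate 2 they were at -1.50, -1.44 and -2.21. *Oxa1l* ranged from -0.97 to -0.41 between the same settings. *Fastkd2* was at 2.08 without WT replicate 1 and 0.53 without WT replicate 2, and *Hars2* at 0.54 and 1.24. *Gadd45gip1* changed sign without WT replicate 2 and without Rxra-KO replicate 1. The smallest adjusted p of these 7 genes, that of *Hars2*, was 0.438. Transcripts encoded by mitochondrial DNA were not analysed here.

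Genes of the cytosolic ribosome gave different counts in the same libraries. Of 73 such genes, in the libraries labelled Rxra-KO limma called 16 lower and 0 higher, beside 0.969% of all genes called lower and 1.32% called higher, and their median log2 fold change was -0.65, with 66 below 0. Their summed normalised read counts were 41857 and 53011 in WT and 23222 and 31938 in the libraries labelled Rxra-KO, while those of the mitoribosomal genes were 2391 and 2690 against 2217 and 2754. *Rpl23*, a large subunit protein, had 2176 and 4095 WT reads against 1006 and 2173 in the libraries labelled Rxra-KO, and fell by 1.08. This gene was picked after its values were seen. The count of 16 came down to 1 without WT replicate 2 and to 3 without Rxra-KO replicate 1. Cytosolic genes were deeper, at a median of 69.5 reads, and many have near-identical pseudogenes that can take their reads. No test of the difference between the gene sets was made.

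**Figure D5:**
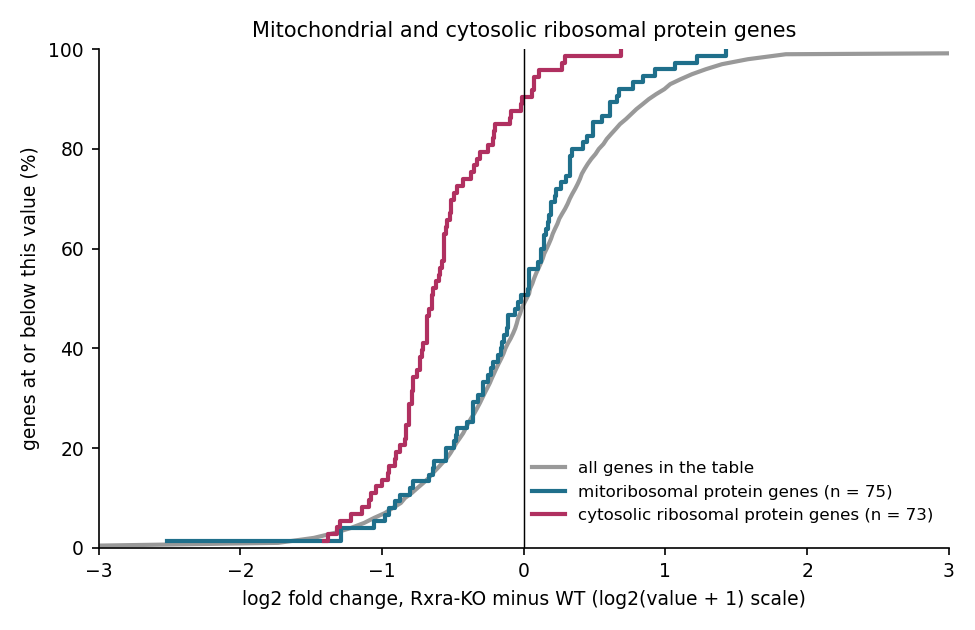
Cumulative share of genes, in percent, at or below each log2 fold change (libraries labelled Rxra-KO minus WT) for all genes of the table, the 75 mitoribosomal and the 73 cytosolic ribosomal protein genes. The mitoribosomal curve crosses 50% at -0.02, close to all genes at 0.02, and the cytosolic curve crosses it at -0.65.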

How the data were processed

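RNA from double-sorted LPMs was sequenced after SMART-Seq v4 amplification, which does not mark strand and carries no molecular identifiers. Per the methods of the study, the authors quantified transcripts with Kallisto (version 0.43.0 in the submitters' processing notes), summarised them to genes with tximport and used limma after TMM scaling. The methods name the human build GRCh38 for these mouse libraries, so the reference behind the counts was not settled. The study left out RNA-seq samples that did not group with their condition. The authors deposited a normalised read signal for each gene and library, in which every value was (reads + 0.5) times a constant. Whole reads were recovered from this signal for 100% of the values, within a tolerance of 0.01 reads. The constant was 1.514 and 1.085 in WT, and 1.506 and 0.9932 in the libraries labelled Rxra-KO. Sample titles, which were followed, number the replicates 1 and 2, whereas the table numbers them 2 and 3.

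Limma (version 3.58.1, R 4.3.3) with a mean-variance trend was fitted to each gene on log2(value + 1) in all 4 libraries, a scale that understates changes of low genes, with two-sided tests and Benjamini-Hochberg adjustment over 18364 genes. Genes needed a value of 1 or more in 2 or more libraries. There were 227 prior and 2 residual degrees of freedom. Standard errors in limma thus came mostly from the trend over genes of similar level, and little from a gene's own libraries. Alternatives included voom, edgeR 4.0.16 and DESeq2 1.42.0 on the recovered reads. Named were called members, the 5 highest and 5 lowest fold changes among members with a mean value of at least 10, the 3 highest and 3 lowest levels, *Mrps18a* to *Mrps18c*, *Mrps30*, *Mrps36*, *Mrpl10* to *Mrpl12*, *Mrps12* and *Mrpl45*, *Rxra*, and in other lists the largest fold change at a mean value of at least 10. *Mrpl57*, *Mrps24*, the genes named only for a region, a level per kilobase or an overlap, and *Mrpl21*, *Mrpl52* and *Mrpl55* were named after their values were seen. Of the cell type lists only counts are given beyond the genes named. The members, lists and tests were chosen with earlier results of these data known. Coordinates and motifs come from RefSeq promoter windows on GRCm38.p6, and lengths and overlaps from GENCODE M21.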

Additional observations from a re-analysis of the deposited data

How the results depend on the processing

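Limma's 421 called genes became 0 without the mean-variance trend and 246 with DESeq2, and ranged from 236 to 377 when 1 library was left out (lowest without WT replicate 2, and 244 without Rxra-KO replicate 1). The 1 mitoribosomal call, *Mrps30*, became 0 with a value of at least 10 required in at least 2 libraries (adjusted p = 0.111), without the trend (adjusted p = 0.472), with voom and with DESeq2, which left an adjusted p for 31 members and none for *Mrps30*. It ranged from 0 to 1 over the libraries left out. With edgeR the call was kept, at an adjusted p of 0.0116. The median of the members ranged from -0.15 to 0.19 over the libraries left out, and the highest value, without Rxra-KO replicate 1, moved by more than the pooled SD of 0.203. The difference of subunit medians ranged from 0.01 to 0.22 with a library left out. The 16 cytosolic calls became 0 without the trend and ranged from 1 to 23 over the libraries left out. The mean in place of the median, the fit without *Mrps30* and the cytosolic count were added after seeing the data.

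Whether replicate numbers pair the libraries is not stated. The differences between replicates correlated at 0.035 between groups over all genes and at -0.057 over the members. These values cannot settle pairing, since counting noise at this depth also lowers a correlation. With a replicate block, 540 genes and 1 member were called, and *Mrps30* had an adjusted p of 0.0267.

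Of 459 values of single genes under an alternative, 437 kept direction and call, 5 lost a call, all of *Mrps30*, and 17 changed sign. None of these 17 had been called, and the cause was not tested. Over the libraries left out, the log2 fold change ranged from -2.14 to 0.19 for *Mrpl54*, from -0.18 to 1.49 for *Mrpl49*, from -0.23 to 0.50 for *Mrpl36*, from -1.02 to 1.25 for *Mrpl47*, from -0.58 to 0.08 for *Mrps18c* and from -0.61 to 0.33 for *Mrps36*. It ranged from -0.02 to 0.68 for *Mrpl12*, from -0.50 to 0.14 for *Mrpl10*, from -0.92 to 0.28 for *Mrpl11*, from -0.59 to 0.01 for *Mrpl45*, from -0.81 to 0.24 for *Gadd45gip1* and from -2.21 to 0.36 for *Vdac1*. With a pseudocount of 0.1, *Mrpl47* was at -0.03.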
